A study of Nasonia vitripennis with 23 samples.

Results

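The odorant receptors numbered 1 to 150 of the jewel wasp Nasonia vitripennis were described in RNA from female heads. Members were all rows of the gene count table whose identifier is Or followed by a number from 1 to 150. The rule thus used no measured value, but it was set with earlier results of these data known. There were 109 such rows among 14131 genes, and 41 numbers of that range had no row and were not analysed here. A further 105 rows carried odorant receptor numbers above 150 and served as the most similar genes for comparison.

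Insect odorant receptors are membrane proteins that assemble with a conserved co-receptor into ligand-gated ion channels. They sit in the dendrites of olfactory sensory neurons, chiefly on the antennae, and each such neuron usually makes the co-receptor together with a receptor that sets which odours it detects. Ants, bees and wasps carry large receptor families in which neighbouring genes arose by tandem duplication. No source used here gives the ligand of any member or names the row that holds the co-receptor, so the members are described by number, level and neighbourhood on the chromosome.

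The study asked whether a female's response to other egg-laying females at a host, the number of foundresses, is accompanied by changes in head expression. Focal females were of the AsymC strain, a laboratory line freed of Wolbachia, and were pretreated with a host and then with honey solution. Each was given 3 hosts for 3 h, either alone (single-foundress), with 4 co-foundresses (five-foundress) or with 9 co-foundresses (10-foundress), the co-foundresses being of the red-eyed STDR strain. Heads of 12 focal females of 1 treatment made up a pool, and each pool gave 1 library.

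The comparisons used 22 libraries, 7 single-foundress, 7 five-foundress and 8 10-foundress, with 25194329 to 69696501 reads counted on genes. The fits do not include single-foundress replicate 2, whose values are given where they bear on a member. It is the library that the authors removed. Experimental set-up was spread over 3 days, but the labels do not tell which pool belongs to which day, so a day effect was not tested. The sources used here also do not state whether every head kept both antennae. Marker genes of head tissue were present in every library. Lop1, an opsin, lay between 5579 and 12025 CPM, and Syt1, a synaptic vesicle protein of neurons, between 211 and 320 CPM. Of germline genes, nanos was near its floor at 0.0364 to 0.258 CPM, while oskar was read at 8.14 to 16.0 CPM. Of blood cell and fat body genes, ppo1 ranged from 3.61 to 61.8 CPM and the hexamerin gene Hex70b from 1.85 to 17.7 CPM. In pooled tissue, fewer cells of a type and less RNA per cell cannot be told apart.

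Most of the receptors were read in heads, but at low levels. Of the 109 members, 107 had at least 1 read over the 22 libraries and 83 had reads in every library. CPM is the count per 1000000 counted reads, with library sizes scaled by the trimmed mean of M-values (TMM). No transcript or coding lengths were available for these rows, so CPM orders the members by reads and not by transcripts, and a longer gene collects more reads at the same level. The median member had a mean of 1.16 CPM, 58 members had a mean of at least 1 CPM and 51 were below it. All members together took 262183 of 833936593 reads.

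Members fell into classes by their mean count per library. In the highest class, with a mean of at least 100 counts, were 21 members with mean levels from 2.63 to 113 CPM, and they took 72.1% of the members' reads. These were Or1, Or2, Or3, Or5, Or10, Or24, Or27, Or35, Or36, Or37, Or72, Or77, Or80, Or92, Or107, Or115, Or134, Or139, Or140, Or141 and Or146. A further 72 members had mean counts from 10 to 100, at 0.268 to 2.53 CPM, and took 27.6% of the reads. They were Or6 to Or9, Or12 to Or17, Or19 to Or23, Or25, Or26, Or28, Or29, Or31, Or41, Or44, Or45, Or59 to Or62, Or64, Or65, Or67 to Or69, Or71, Or76, Or78, Or79, Or81, Or82, Or85 to Or89, Or93, Or94, Or96, Or98, Or99, Or101 to Or103, Or105, Or106, Or110, Or111, Or114, Or117 to Or119, Or122, Or124 to Or126, Or128, Or130, Or132, Or133, Or137, Or142, Or143, Or145 and Or147. The 8 members with mean counts from 1 to 10 were Or38, Or43, Or47, Or56, Or66, Or113, Or129 and Or135, at 0.0331 to 0.221 CPM. Another 6, Or46, Or48, Or50, Or53, Or58 and Or149, averaged below 1 count per library, and Or51 and Or100 had no read.

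**Figure D1:**
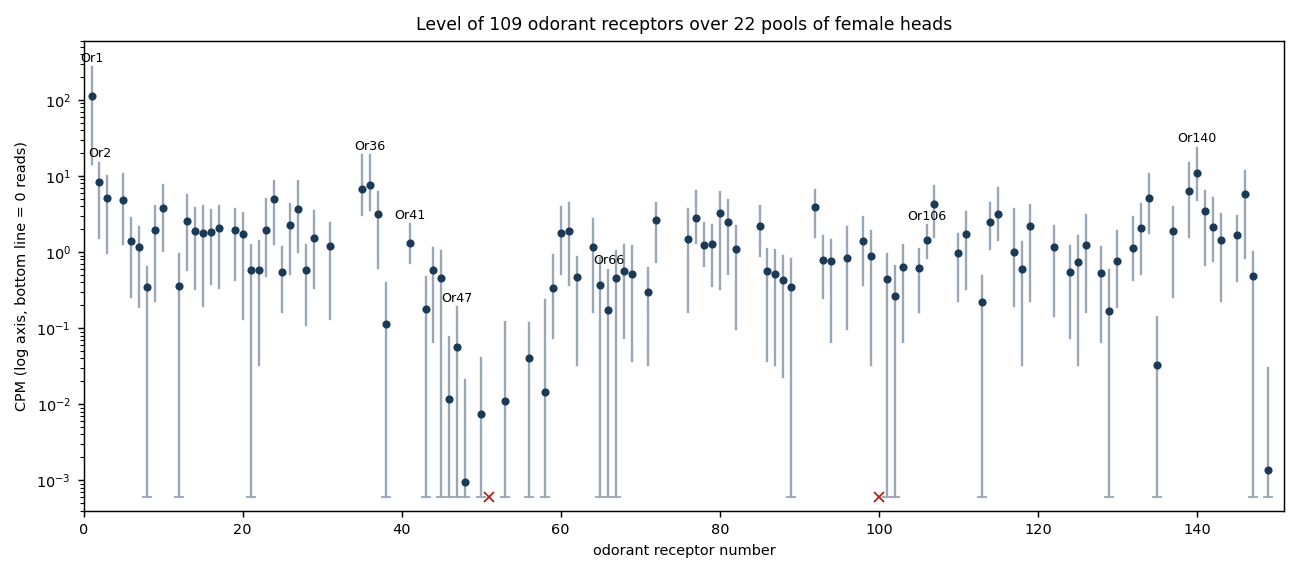
Mean CPM of each member over the 22 libraries (vertical axis, log scale) against its receptor number (horizontal axis), with lines from the lowest to the highest library, bars at the bottom for libraries with 0 reads and crosses for Or51 and Or100. Or1 stood alone at 113 CPM, and the median member was at 1.16 CPM. Of the 16 members with a mean below 10 counts, 9 were numbered 43 to 58, a stretch set after the values were seen.

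Or1 was read far more than any other member. Its mean level over the 22 libraries was 113 CPM ± 72.1 (SD, n = 22), and it alone held 39.4% of the members' reads. The lowest library, single-foundress replicate 8, had 14.3 CPM, the median was 95.6 CPM and the highest library, 10-foundress replicate 18, had 271 CPM. The next member was Or140 at 11.0 CPM ± 4.62 (SD, n = 22), with a lowest library of 4.85, a median of 9.87 and a highest of 23.4 CPM. Even the lowest Or1 library thus lay above the mean of Or140, and the ranges of both overlapped only between different pools. In single-foundress replicate 8 itself, Or1 had 439 counts and Or140 had 149. Or2 followed at 8.25 CPM ± 3.72 (1.53 to 14.9), Or36 at 7.63 ± 4.02 (3.61 to 18.8) and Or35 at 6.71 ± 4.15 (3.03 to 18.7; all SD, n = 22). From Or140 on, differences between neighbours in this order were smaller than the SD between pools. The members were read in the same libraries and moved together, so that SD does not measure how steady the order was within libraries. The other members of the 15 most read were Or139 at a mean of 6.29 CPM, Or146 at 5.86, Or134 and Or3 at 5.14 each, Or24 at 5.06, Or5 at 4.80, Or107 at 4.33, Or92 at 3.92, Or10 at 3.79 and Or27 at 3.64. These 15 together held 65.9% of the members' reads.

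At the other end, Or51 and Or100 had 0 reads in all 22 libraries, and also in single-foundress replicate 2. A count of 0 allows up to 3 reads, which is 0.00360 CPM over the 22 libraries and between 0.0430 and 0.119 CPM in any 1 library. Such limits cover counting error only. Or48 and Or149 had 1 read each, Or48 in 10-foundress replicate 18 and Or149 in single-foundress replicate 1. Or50 had 6 reads in all, Or53 had 8 and Or46 had 10. At this depth, differences between groups could not be resolved for these receptors.

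The receptors with few reads were not spread evenly over the numbers. Of the 16 members with a mean below 10 counts, 9 were numbered 43 to 58. That stretch held 11 members, of which Or44 and Or45 were the other 2, and its ends were set after the values were seen. All 109 members were found by symbol in the RefSeq gene table (assembly Nvit_psr_1.1, used for names and neighbours only). In it, 81 members lay in 18 runs of 2 or more members, and 28 lay apart from other members. Some of the 28 had odorant receptors that are not members beside them, as Or140 in a run of 6 receptors. A run had no protein-coding gene or pseudogene other than odorant receptors between its members, and other gene types were not considered. Numbers of a run were mostly close, as in Or44, Or45 and Or46, or in Or51 and Or50. Or43, Or47, Or48, Or53, Or56 and Or58, which are also in the stretch, each lay apart from other members. Or48 and Or56 were not apart from odorant receptors, as their runs held 2 and 4 receptors, the others not being members.

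Members of 1 run could differ widely in level. The largest run held 18 members, from Or31 down to Or12, with means from 0.362 CPM for Or12 to 5.06 CPM for Or24, a 14.0-fold range. In the run of Or129, Or130, Or132, Or133 and Or134 the range was 30.5-fold, from 0.169 CPM for Or129 to 5.14 CPM for Or134. Or44 was read at 0.587 CPM and Or46, with Or45 between them in the same run, at 0.0119 CPM. Other runs were even. Or60 and Or61 differed 1.04-fold, and Or93, Or94 and Or96 lay between 0.758 and 0.826 CPM. Or100, with no read, sat in a run of 7 members in which Or98 was the highest. The deposited counts leave out reads that could not be given to a single gene, so members with a near-identical neighbour may be undercounted. How alike the neighbours are in sequence was not analysed here.

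Pools differed in receptor reads far more than in most genes. The summed level of the 109 members ran from 70.4 CPM in single-foundress replicate 8 to 545 CPM in 10-foundress replicate 18, a 7.73-fold range. Over the same libraries Lop1 varied 2.16-fold, Syt1 1.51-fold, oskar 1.97-fold and nanos, near its floor, 7.1-fold. Some genes ranged more widely than the summed members, as ppo1 17.1-fold, Hex70b 9.57-fold and the odorant-binding protein gene OBP77 9.51-fold. The members moved together. Of the 21 members of the highest class, single-foundress replicate 8 was below the median of the 22 libraries for 21 and was the lowest library for 16. Five-foundress replicates 12 and 13 and 10-foundress replicate 19 were also below the median for 21 of 21. In single-foundress replicate 1, five-foundress replicates 10 and 11 and 10-foundress replicates 17 and 18 none of the 21 was below its median, and single-foundress replicate 1 was the highest library for 14 of them. Pools with high and with low receptor levels were thus found in every treatment.

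**Figure D2:**
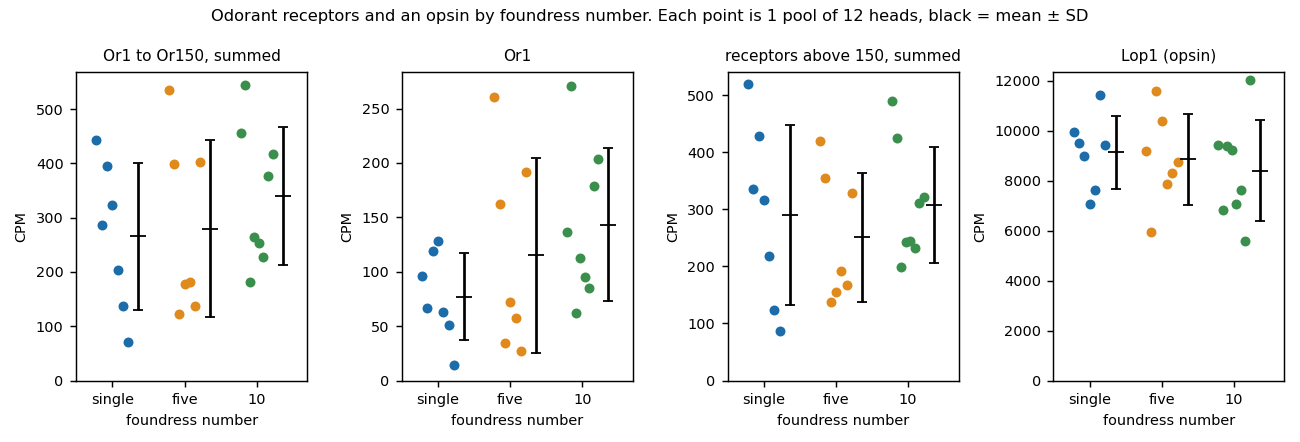
Summed level of the members, of Or1, of the receptors numbered above 150 (also summed) and of the opsin gene Lop1 (CPM) by foundress number, 1 point per pool of 12 heads and black marks for the mean and SD. The summed members lay between 70.4 and 545 CPM and Lop1 between 5579 and 12025 CPM, and the points of the 3 treatments overlapped in each panel.

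**Figure D3:**
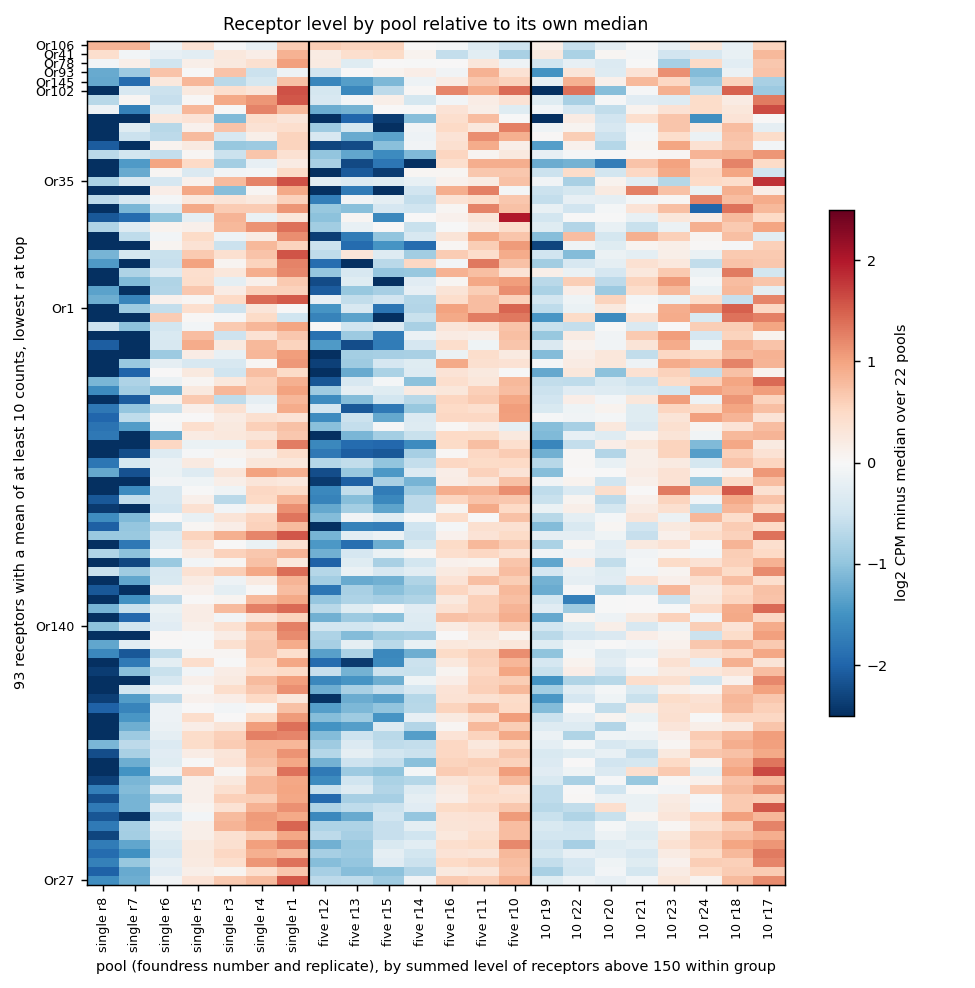
Level of each of the 93 members with a mean of at least 10 counts in each library, as log2 of the CPM over the member's median (colour scale). Columns of 1 colour show pools in which nearly all of the members were high, such as single-foundress replicate 1, or low, such as single-foundress replicate 8.

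The spread within a treatment was measured as the coefficient of variation (CV), the pooled SD of the CPM within groups over the mean. For the 20 members of the highest class other than Or1 the median CV was 49.5% (35.0% to 63.4%). Among 1788 genes that are not odorant receptors and have mean counts in the same range the median was 26.7%, and 89.0% of those genes lay below the median member. The 33 receptors above 150 with a mean of at least 100 counts had a median of 49.9%, close to that of the members. Counting error alone would give the 21 members a CV of 1.46% to 9.76%. The most variable members were Or35 (63.4%), Or1 (61.7%), Or141 (58.0%), Or146 (55.8%) and Or5 (55.3%). The least variable of the class were Or24 (45.8%), Or140 (43.4%), Or72 (37.9%), Or107 (35.8%) and Or92 (35.0%). Or92 ranged from 1.57 to 6.49 CPM, 4.15-fold, and Or1 19.0-fold.

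Most of this spread was shared with the other odorant receptors. When each member was expressed as a ratio to the summed CPM of the receptors above 150 in the same library, the median CV of the 21 members fell from 50.9% to 21.2% and it was smaller for 21 of 21, from 12.9% for Or24 to 37.2% for Or1. Over the 22 libraries, the log2 CPM of the 93 members with a mean of at least 10 counts correlated with the log2 summed CPM of the receptors above 150 with a median Pearson's r of 0.88 and a median Spearman's rho of 0.87. It was positive for 91 of 93 and above 0.8 for 75, and Or27 followed the sum most closely (r = 0.97). Within the single-, five- and 10-foundress libraries the medians of r were 0.94, 0.92 and 0.83, and without the libraries farthest from the median, single-foundress replicates 7 and 8, the median was 0.84. All points share their library and its depth scaling, and the correlations are a description.

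**Figure D4:**
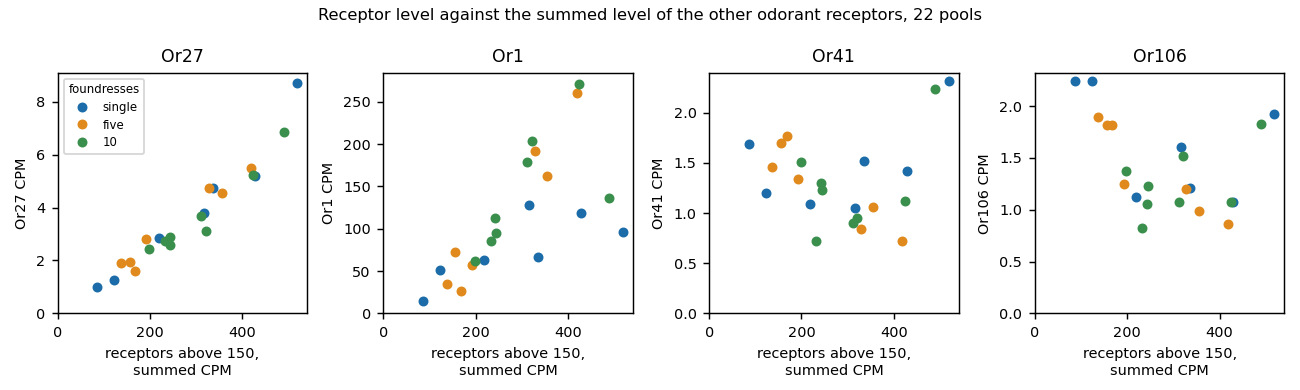
Levels of Or27, Or1, Or41 and Or106 (CPM) against the summed level of receptors numbered above 150 (CPM), 1 point per library and coloured by treatment, with r computed on log2 values. Or27 followed the sum (r = 0.97), whereas Or41 (r = -0.13) and Or106 (r = -0.48) did not.

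The 4 members with r below 0.5 were Or106, Or41, Or78 (r = 0.37, rho = 0.44) and Or93 (r = 0.44, rho = 0.30), and r was below 0 for Or106 and Or41. They were singled out after their values were seen. Or106 had a mean of 1.42 CPM and 24 to 80 counts per library. Its highest library was single-foundress replicate 8 at 2.25 CPM, the pool in which 16 of the 21 most read members were lowest. Its correlation with the receptors above 150 was negative (r = -0.48, rho = -0.38, permutation p = 0.0226 and 0.0804, n = 22), and weakened to r = -0.23 without single-foundress replicates 7 and 8. Within treatments it was -0.57 for single-, -0.95 for five- and 0.45 for 10-foundress libraries, so its sign differed between treatments. Or41 had a mean of 1.33 CPM, 21 to 77 counts per library and r = -0.13 (rho = -0.13, permutation p = 0.572 and 0.574, n = 22), with r of 0.25, -0.92 and 0.35 within the single-, five- and 10-foundress libraries. Its lowest library was five-foundress replicate 10 at 0.721 CPM and its highest single-foundress replicate 1 at 2.31 CPM, both of them pools in which the other members were high.

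Or35 and Or36, neighbours in 1 run with Or37, were highest in 4 pools that were not those with the most Or1. Or35 was highest in 10-foundress replicate 17 at 18.7 CPM, followed by single-foundress replicates 1, 4 and 3 at 16.0, 12.5 and 9.17 CPM. Or36 was highest in the same 4 pools, at 18.8 CPM in single-foundress replicate 1, 15.8 in 10-foundress replicate 17, 13.8 in single-foundress replicate 4 and 12.3 in single-foundress replicate 3. Or139 (9.56 to 14.7 CPM) and Or142 (3.25 to 5.11 CPM) were also highest in these 4 pools, and the receptors above 150 had their highest sums in 3 of them, at 519, 489 and 428 CPM. In the remaining pools Or35 stayed between 3.03 and 8.88 CPM. Or1 was between 66.7 and 136 CPM in those 4 pools, below its highest value of 271 CPM in 10-foundress replicate 18, where Or35 was at 7.18 CPM. Hence the share of Or1 in the members' reads was not constant, and ran from 19.8% to 49.7% over the libraries.

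Or1 was set against 9 other genes, the receptors above 150 and the depth, 11 relations in all (log2 values, n = 22). It rose with the summed receptors above 150 (r = 0.83, rho = 0.78, adjusted permutation p = 5.5e-05 for r) and with the odorant-binding protein gene OBP77 (r = 0.79, rho = 0.78, adjusted permutation p = 5.5e-05), the latter ranging from 10.3 to 97.8 CPM. Within the treatments r with OBP77 was 0.81, 0.81 and 0.72, and it was 0.70 without single-foundress replicate 8 and five-foundress replicate 15. Or1 was not related beyond the permutation threshold to Lop1 (r = -0.32, rho = -0.32, permutation p = 0.149 and 0.147) or Syt1 (r = -0.25, rho = -0.22, permutation p = 0.271 and 0.325). It was higher in libraries with more counted reads (r = 0.63, rho = 0.66, adjusted permutation p = 0.00605 for r), and within the treatments this r was 0.54, 0.87 and 0.36. Or1 also went with ppo1, a phenoloxidase gene of blood cells (r = 0.46, rho = 0.46, permutation p = 0.0303 and 0.0346, adjusted p = 0.0556 for r), with r of 0.00 within the single-, 0.51 within the five- and 0.80 within the 10-foundress libraries. Other blood cell, fat body and germline genes went the other way, with r of -0.47 for Hex83, -0.49 for oskar (adjusted permutation p = 0.0556 for each), -0.38 for ppo3 and -0.39 for Hex109, and r was 0.18 for Hex70b. None of these genes passed after adjustment. The part of depth and of these genes in the level of Or1 was not tested further.

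By foundress number, the summed level of the members was 266 CPM ± 136 (SD, n = 7) in single-foundress pools, 279 ± 163 (n = 7) in five-foundress pools and 340 ± 127 (n = 8) in 10-foundress pools. The lowest, median and highest pools were at 70.4, 286 and 444 CPM for single-, 123, 182 and 535 CPM for five- and 182, 321 and 545 CPM for 10-foundress females. The groups overlapped, and their means differed by less than the SD within any group. Or1 decided the order of single- and five-foundress pools, since without it the sums were 189 ± 103, 164 ± 74.7 and 197 ± 69.1 CPM (SD), lowest in five-foundress pools. The receptors above 150 summed to 290 ± 158, 251 ± 114 and 308 ± 102 CPM in the same order.

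No member passed the test for a difference between treatments in any of the 4 tests, and DESeq2 and limma-voom called 0 members as well. With edgeR's quasi-likelihood test over all genes and Benjamini-Hochberg adjustment, 0 of the 107 members tested had an adjusted p below 0.05 for single- against five-foundress, five- against 10-foundress, single- against 10-foundress and overall foundress number, against 0% of 13599 genes in each. At an unadjusted p below 0.05 there were 0 members for single- against five-foundress, where 1.76% of all genes passed. For five- against 10-foundress there were 2, Or25 and Or47, or 1.87% of the members against 1.81% of all genes. For single- against 10-foundress there were 2, Or47 and Or66, against 3.18% of all genes, and the same members passed for overall foundress number, against 1.96% of all genes. No member had groups without overlap in any pair of treatments, a count that was not made over all genes. In these tests, the shares of members at an unadjusted p below 0.05 were near or below those of all genes.

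The receptors as a set sat slightly higher in 10-foundress pools, within the spread of the pools. The median log2 fold change of the members was -0.08 for five- over single-foundress, 0.26 for 10- over five-foundress and 0.15 for 10- over single-foundress, beside 0.00, 0.01 and 0.01 over all genes. Of the 107 members, 40 had a fold change above and 66 below 0 for five- over single-foundress pools. There were 88 above and 18 below for 10- over five-foundress, and 75 above and 32 below for 10- over single-foundress, with any remaining member at 0. In this order, 37.4%, 82.2% and 70.1% of the members were above 0, beside 50.8%, 53.2% and 51.9% of all genes. As the members move together from pool to pool, these counts do not add up as separate observations, and the 3 comparisons share pools. The receptors above 150 had medians of -0.14, 0.27 and 0.13. Among them 0, 2 and 0 of 104 had an unadjusted p below 0.05 in the 3 comparisons. Gustatory receptors, which detect tastants, had medians of -0.12, 0.01 and -0.11, with 0, 1 and 2 of 44 at an unadjusted p below 0.05. Of the 3 odorant-binding protein genes found by symbol none passed. No gene of these lists had an adjusted p below 0.05 in edgeR's test.

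Or1 had means of 76.9 CPM ± 40.0 (SD, n = 7) in single-, 115 ± 90.0 (n = 7) in five- and 143 ± 70.1 (n = 8) in 10-foundress pools. The lowest, median and highest pools were at 14.3, 66.7 and 128 CPM for single-, 27.0, 72.0 and 260 CPM for five- and 61.8, 125 and 271 CPM for 10-foundress females. The groups overlapped, and 0 single-, 3 five- and 4 10-foundress pools lay above 128 CPM, the highest single-foundress value. The log2 fold change was 0.58 (SE 0.47) for five- over single-foundress, 0.32 (SE 0.46) for 10- over five-foundress and 0.90 (SE 0.46) for 10- over single-foundress. For the last the edgeR p was 0.0659 and the adjusted p 0.952. For Or1 alone, exact permutation of the pools (two-sided, on log2 CPM) gave p = 0.0389 for single- against 10-foundress, with a difference of 1.01, p = 0.539 for single- against five- and p = 0.262 for five- against 10-foundress, none of them adjusted for the number of genes. Single-foundress replicate 2, left out of these fits, had Or1 at 181 CPM, above the other 7 single-foundress pools.

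Or66 and Or47 had the smallest p-values among the members and few reads. Or66 had 0 to 5 counts in single-, 0 to 21 in five- and 2 to 28 in 10-foundress libraries, or medians of 0.0902, 0.0960 and 0.253 CPM. The groups overlapped, and the log2 fold change for 10- over single-foundress was 2.06 (SE 0.57), with an edgeR p of 0.00131 and an adjusted p of 0.952. The exact two-sided permutation test gave p = 0.00668, not adjusted for the number of genes. It was run on Or66 and Or47 because of their small edgeR p in the same libraries, so it is no separate support. Single-foundress replicate 2 had 15 counts of Or66, or 0.273 CPM, above every other single-foundress pool. Or47 went the opposite way, with 0 to 9 counts in single-, 0 to 6 in five- and 0 to 2 in 10-foundress libraries. Its log2 fold change was -2.18 (SE 0.63) for 10- over single-foundress, with an edgeR p of 0.00140, an adjusted p of 0.952 and an exact permutation p of 0.0127, and single-foundress replicate 2 had 10 counts.

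Or25 had 4 to 52 counts per library. Its lowest, median and highest levels were 0.325, 0.374 and 0.867 CPM in single-, 0.161, 0.255 and 0.780 CPM in five- and 0.457, 0.543 and 1.15 CPM in 10-foundress pools. The log2 fold change for 10- over five-foundress was 0.68 (SE 0.32), with an edgeR p of 0.0434, an adjusted p of 1.00 and an exact two-sided permutation p of 0.0239. The groups overlapped here too, and Or25 was likewise permuted because of its small edgeR p, without adjustment for the number of genes. For single- against five-foundress the smallest edgeR p of a member was 0.0732, for Or77, which was lower in five-foundress pools by a log2 fold change of -0.61, with an adjusted p of 1.00.

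**Figure D5:**
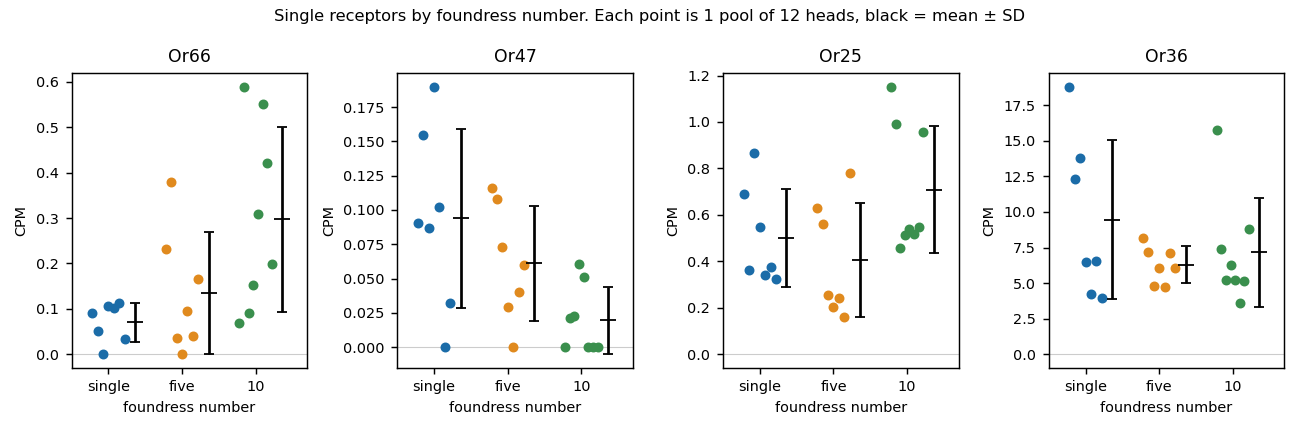
Levels of Or66, Or47, Or25 and Or36 (CPM) by foundress number, 1 point per pool of 12 heads with the mean and SD in black. Or66 was highest in 10-foundress and Or47 in single-foundress pools on average, and the points of the treatments overlapped for each of the 4 members.

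The spread between pools set the size of difference that could be seen. The median SE of the log2 fold change of the 21 members with a mean of at least 100 counts was 0.36, 0.35 and 0.35 in the 3 pairs of treatments, beside 0.16, 0.15 and 0.15 for 9247 other genes of at least that count. With the log2 summed CPM of the receptors above 150 as a covariate in the edgeR fit, the members' median SE fell to 0.15 in each pair. That fit compares each member relative to the other receptors. In it, 7 members had an unadjusted p below 0.05 for single- against five-foundress, or 6.54% of the members against 2.64% of all genes. For five- against 10-foundress there were 4, or 3.74% against 4.02%. For single- against 10-foundress there were 11 of 107, or 10.3% of the members against 4.79% of all genes. Of these, Or1, Or66, Or76, Or82 and Or87 were higher and Or36, Or47, Or77, Or132, Or139 and Or142 lower in 10-foundress pools. Or1 had a log2 fold change of 0.64, Or76 of 0.74 and Or87 of 0.78, and Or36 of -0.51. None had an adjusted p below 0.05, the smallest among the members being 0.700.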

How the data were processed

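For the 23 libraries of pooled female heads, the authors deposited raw counts per gene that were not normalized. Per the labels and methods, reads were quality filtered and adapter trimmed with cutadapt (1.8.3), aligned to assembly Nvit 2.1 with TopHat2 (2.0.14) and counted with HTSeq in union mode, which drops ambiguous reads. The strand setting is not given in the sources used here, so overlapping genes and near-identical copies are uncertain. The tool versions follow the submitters' processing notes.

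Analyses were run in R 4.3.3, with edgeR 4.0.16 for the main tests. All genes with at least 1 read over the 22 libraries entered 1 quasi-likelihood fit with TMM factors and foundress number as the only factor, and p-values were adjusted over all 13599 genes. Library totals were 25194329 to 69696501 counts. The smallest chi-square per gene between replicates was 28.3, so no pair agreed within counting noise. Replicates are separate pools. The fit was tested on simulated counts. Or1 and the members with an unadjusted p below 0.05 in the main tests were also tested by exact permutation (pseudocount 0.5 counts). Relations across libraries were tested with 100000 permutations. Alternatives used DESeq2 1.42.0, limma 3.58.1 and sva 3.50.0.

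Members and lists were chosen with earlier results of these data known. Members named with values were Or1, the 15 with the highest mean CPM, those at 0 and the 5 lowest above 0, those with an unadjusted p below 0.05, and the 5 with the largest and the 5 with the smallest CV among members with a mean of at least 100 counts. Any other was named after its values were seen. Lists were matched by symbol, as no product names were available, so ionotropic receptors, chemosensory proteins and sensory neuron membrane proteins were not analysed here. Protein identities, sequences and levels per coding length were not used here.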

Additional observations from a re-analysis of the deposited data

Results flagged for a closer look

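Named members and summed levels were screened by Dixon's ratio for a pool far from the rest of its treatment. For normally distributed values it flags about 1 in 20 groups by chance, a rate that does not hold for receptors with few reads. Of 74 groups of 7 or 8 pools, 11 stood out. Of these, 3 rested on high counts. Or35 and Or36 were both far higher in 10-foundress replicate 17 than in the other 10-foundress pools, with 18.7 CPM against a next value of 7.48 for Or35 and 15.8 CPM against 8.77 for Or36. Or35 also stood out in five-foundress replicate 10, at 8.88 CPM against 6.12. Both pools were high for most of the other members as well, as 0 of the 21 most read members lay below their median in either.

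The other 8 rested on 1 to 3 reads of receptors that had none or hardly any elsewhere. Where only 1 pool of a treatment had reads, the ratio is 1.0 by construction and the flag was fixed in advance. Or48 had 1 read in 10-foundress replicate 18 (0.0211 CPM) and Or149 had 1 in single-foundress replicate 1 (0.0301 CPM). Or50 had 1 read each in single-foundress replicate 6 (0.0341 CPM) and 10-foundress replicate 19 (0.0228 CPM). Or53 had 3 reads in five-foundress replicate 15 (0.121 CPM) and 1 in 10-foundress replicate 21 (0.0257 CPM). Or46 had 2 reads in five-foundress replicate 12 (0.0728 CPM) and 1 in 10-foundress replicate 19 (0.0228 CPM).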

How the results depend on the processing

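In each of the 4 tests, 0 members had an adjusted p below 0.05 under all 31 alternatives, by edgeR, DESeq2 and limma-voom alike. The smallest was 0.0830, for Or47 in single- against 10-foundress with all 23 libraries. Among all genes, most alternatives also called none. With all 23 libraries 39 genes passed for single- against 10-foundress and 77 for foundress number as a whole. With 5 sva surrogate variables, 4 passed for single- against five-foundress, 27 for single- against 10-foundress and 17 for foundress number as a whole. For single- against 10-foundress limma-voom called 3, and leaving out single-foundress replicate 3 gave 1 there and 1 for foundress number as a whole. The number of members at an unadjusted p below 0.05 ranged over the alternatives from 0 to 7 for single- against five-foundress, 1 to 4 for five- against 10-foundress, 0 to 11 for single- against 10-foundress and 0 to 9 for foundress number as a whole, and with each library left out in turn from 0 to 3, 1 to 3, 2 to 5 and 2 to 3. The highest member count of each test came from the fit with the receptors above 150 as a covariate, which tested 107 members. In the same order, the share of all genes ranged from 1.36% to 6.65%, 1.21% to 9.36%, 2.21% to 14.1% and 1.47% to 10.6%. In the covariate fit it was 2.64%, 4.02%, 4.79% and 3.60%. The log2 fold change of Or1 between single- and 10-foundress pools ranged from 0.54 to 1.06, that of Or66 from 1.50 to 2.22 and that of Or47 from -2.69 to -1.38, and none changed sign. For five- against 10-foundress, Or25 ranged from 0.50 to 0.94 and Or47 from -1.89 to -0.62. The difference of Or1 between single- and five-foundress pools was less steady, at 0.01 to 0.76 over the alternatives, and fell to 0.24 without five-foundress replicate 10. That between five- and 10-foundress pools was 0.32 with every library, 0.12 without 10-foundress replicate 18 and 0.66 without five-foundress replicate 10. The filter filterByExpr removed Or47 and Or66 and tested 93 members. Levels in CPM moved by less than 1 SD with other library sizes or with all 23 libraries. The alternative of levels per coding length was not run, since no lengths were available. No paired analysis was possible because the treatments share no replicate numbers. Members with fewer than 10 counts per library give no firm fold change at this depth.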

Other observations

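Single-foundress replicate 2, the library left out of the fits, had reads on 103 members and lay within the range of the 22 other libraries for every member, with Or1 at 181 CPM, Or140 at 9.61 CPM and Or36 at 6.54 CPM. Or51 and Or100 had no read there either, and Or48 and Or149, each with 1 read over the 22 libraries, had 1 read each in it.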
